A study of Mus musculus with 12 samples.

Results

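The spleens of male mice were compared between 24-28 weeks and 6-9 weeks of age, with every difference given as older minus younger. The members were chosen from the array labels alone: the 2 arrays labelled male at 24-28 weeks and the 2 labelled male at 6-9 weeks, 4 of the 12 arrays of the series, with all 12422 probe sets on them that are not controls. The series hybridised biotin-labelled total RNA of mouse spleen to single-channel Affymetrix arrays, for both sexes at 3-4, 6-9 and 24-28 weeks, which its design text places before, at and after puberty. There are 2 arrays, a and b, for every combination of sex and age, 6 in all. The labels give sex and age as the only differences between the groups, and for strain, housing and treatment the sources used here give nothing. Nothing in the labels says that arrays a and b of a group came from separate animals, so a p-value below reflects the scatter of the arrays alone, and that scatter may be technical.

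The spleen filters blood and houses lymphocytes. Its white pulp holds B cells in follicles and T cells around the arterioles, and its red pulp holds macrophages that clear old red cells and recycle their iron. In mice the red pulp also keeps making red cells and granulocytes in adult life: erythroid precursors switch on haem synthesis and a set of membrane proteins as they mature, and neutrophil precursors make the proteases of the azurophil granules before those of the specific granules. In RNA of whole spleen, fewer cells of a type and less RNA per cell cannot be told apart.

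The values are MAS5 signals, one linear intensity per probe set, a group of short probes against one transcript. All arrays were brought to the same trimmed mean, 500, and signals below are on this scale. The 2 arrays of a male group correlated across probe sets at 0.965 and 0.969, and arrays of the 2 male ages at 0.873 to 0.878, which are correlations across genes and not across independent replicates. The beta-actin control, whose 3' to 5' signal ratio is a sign of RNA quality, differed most between the very groups compared here: the older males had the highest ratio of the 6 groups, 2.50 ± 0.159 (SD, n = 2), and the younger males the lowest, 0.355 ± 0.0304. The Gapdh control ratio was 2.34 ± 0.0511 at 24-28 weeks and 1.22 ± 0.226 at 6-9 weeks. These ratios stand beside every male result below, and their part in the results was not tested. Array b of the males at 6-9 weeks also had the lowest maximum of the 12 arrays, 28490 before rescaling against at least 44639 on the others. The Y-linked gene Eif2s3y had signals of 658 and 857 at 6-9 weeks and 927 and 987 at 24-28 weeks, and at most 57.6 on the female arrays of these ages, so the sex of these arrays matched their labels.

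Between the 2 ages, 3923 of 8926 tested probe sets (44%) differed in limma's test at an adjusted p under 0.05. Of all tested probe sets, 1401 were higher at 24-28 weeks (15.7%) and 2522 were lower (28.3%). The unadjusted p was under 0.05 for 4560 (51.1%). Among the higher ones, 544 differed by more than 2-fold, 96 by more than 4-fold and 19 by more than 8-fold. Among the lower ones the counts were 1156, 86 and 6. Decreases were thus more numerous above 2-fold, the counts were close above 4-fold, and increases were more numerous above 8-fold. Folds are on the log2(signal + 32) scale, on which changes of dim genes come out too small, and a difference below is a log2 difference on it. This limits falls that end at dim signals, such as Traf1, and rises from them, such as Saa3, so the counts do not rank rises against falls. Both older arrays lay above both younger ones for 2181 probe sets (24.4%) and below them for 4329 (48.5%). The median log2 difference of all tested probe sets was -0.25. Median centring of each array moved it to 0.07 and turned the split to 2120 higher and 1390 lower, and quantile normalisation moved it to -0.03 with 1601 higher and 1792 lower, so the direction of small differences depends on the scaling. Each gene is read by its brightest probe set. Of 89 called genes of the lists and other named genes that have further tested probe sets, all of these were called in the same direction for 38, at least 1 was called in the opposite direction for 3 (Ighm, Ighg3 and Cox6c, chosen for this after their values were seen), and for the other 48 at least 1 did not pass. Where both arrays of one age read below 100, the least signal asked for in the filter, a difference rests on the offset of 32, and for several such genes the fold of the brighter age's geometric mean over 100 is given as a lower bound. No gene list was tested as a whole, and the lists were written with earlier results of these data known.

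**Figure D1:**
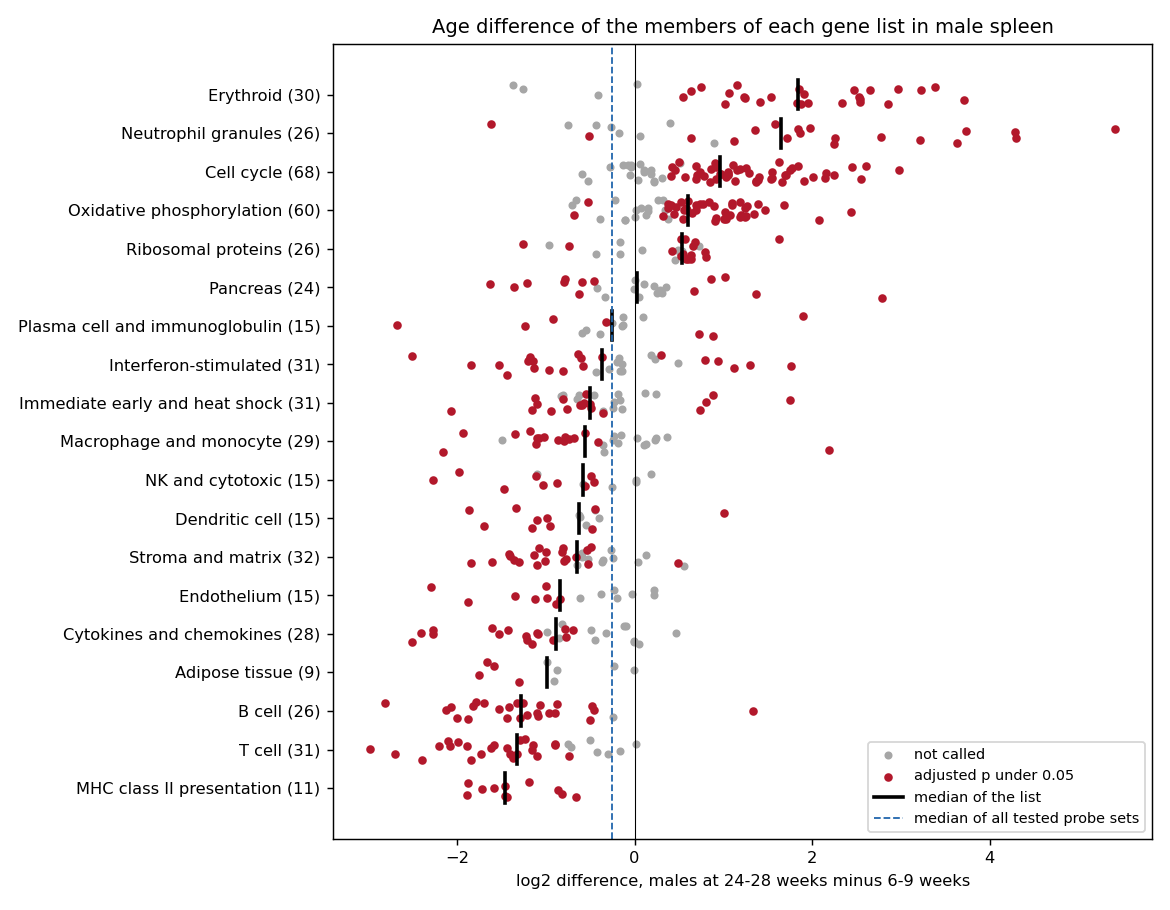
Each point is the log2 difference (males at 24-28 weeks minus 6-9 weeks, 2 arrays each) of one tested gene, by gene list with the number of tested members, red where the adjusted p is under 0.05 and grey otherwise. Black bars are list medians and the dashed line is the median of all tested probe sets, -0.25; the erythroid (1.84), neutrophil granule (1.65) and cell cycle (0.97) medians lie to its right, and the B cell (-1.27), T cell (-1.33) and MHC class II (-1.46) medians to its left.

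Genes for neutrophil granule proteins were among the largest increases. Of 26 tested genes of neutrophils and their precursors, 17 were higher at 24-28 weeks and 2 were lower, beside 15.7% and 28.3% of all probe sets. Their median difference was 1.65 against -0.25 for all. Of the proteins of azurophil granules 4 of 4 were higher, of those of specific and gelatinase granules 9 of 11, of the calgranulins 2 of 2, of surface receptors 2 of 6 and of transcription factors 0 of 3.

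All 4 azurophil granule genes rose, with a median difference of 4.01. Ctsg, which encodes the protease cathepsin G, had signals of 112 and 36.3 at 6-9 weeks and 4377 and 4028 at 24-28 weeks. This is a log2 difference of 5.41 (SE 0.29, adjusted p = 7.77e-08), a 42.6-fold rise, with both younger arrays near the dim end of the scale. Prtn3, the gene of proteinase 3, went from 313 and 311 to 6232 and 7239, a difference of 4.29 (SE 0.13, adjusted p = 1.89e-09). Elane, the gene of neutrophil elastase, went from 664 and 589 to 7943 and 8239, a difference of 3.63 (SE 0.12, adjusted p = 3.24e-09). Mpo, which encodes the peroxidase of the same granules, had 191 and 167 on the younger arrays and 2802 and 2744 on the older ones, a difference of 3.73 (SE 0.23). In each of the 4 genes the age groups were separated by several-fold with no overlap. The Mpo probe set can match related transcripts, and a second Mpo probe set gave 113 and 145 against 149 and 153, a difference of 0.19 that did not pass the test. A call and a near-zero difference thus came from probe sets of 1 gene.

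Prtn3 and Elane are neighbours on chromosome 10, 3137 bases apart in RefSeq's annotation of GRCm38.p6, and their promoters are shown because these neighbours rose together. Each sequence is the 250 bases before the annotated start, 5′ to 3′, on the plus strand, from RefSeq (Prtn3 at chr10:79879417-79879666, Elane at chr10:79886062-79886311). Capitals mark GGAAGT, the core that ETS family factors such as PU.1 bind, found 93 bases before the start of Prtn3 and 83 bases before that of Elane.
Prtn3: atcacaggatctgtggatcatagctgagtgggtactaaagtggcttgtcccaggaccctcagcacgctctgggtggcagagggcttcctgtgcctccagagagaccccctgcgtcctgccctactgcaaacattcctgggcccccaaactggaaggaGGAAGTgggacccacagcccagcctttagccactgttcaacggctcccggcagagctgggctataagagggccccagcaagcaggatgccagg
Elane: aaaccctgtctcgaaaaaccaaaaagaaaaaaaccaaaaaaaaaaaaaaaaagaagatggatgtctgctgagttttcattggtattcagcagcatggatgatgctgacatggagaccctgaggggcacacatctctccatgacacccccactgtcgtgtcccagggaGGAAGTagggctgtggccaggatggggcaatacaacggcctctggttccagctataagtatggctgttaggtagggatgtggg
Of the 26 tested genes of the list, 23 had a promoter in the table, as windows of 300 bases from 250 before to 50 after the start. GGAAGT stood in 12 of these 23 on either strand (52.2%), against 26.5% of all 27025 genes with a promoter, and TTNNGCAA, letters of the C/EBP motif, in 8 of 23 (34.8%) against 12.2%. The motifs were searched one by one, so that matches of different motifs may overlap, and a match describes the letters of the window only.

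Genes of the specific and gelatinase granules rose by less at the median, 1.84. Camp, the cathelicidin antimicrobial peptide, went from 2455 and 2876 to 25999 and 23753, a difference of 3.21 (SE 0.10, adjusted p = 3.03e-09). Ltf, the gene of the iron-binding protein lactoferrin, went from 299 and 290 to 2183 and 2210, a difference of 2.77. Chil3, a chitinase-like protein of myeloid cells, went from 813 and 730 to 16107 and 15088, a difference of 4.28 and the largest in this class. The iron-siderophore binder Lcn2 rose from 446 and 386 to 2224 and 2000, while a dimmer second probe set of it read 283 and 277 against 318 and 285 and did not pass. Ngp, a granule protein of neutrophil precursors, rose from 853 and 951 to 4284 and 4475. Pglyrp1, a peptidoglycan-binding protein, rose from 941 and 958 to 3049 and 3971. By the brightest probe sets, in all of these both older arrays exceeded both younger ones. The exception was Cybb, the membrane subunit of the phagocyte oxidase, which fell from 998 and 999 to 304 and 303, a difference of -1.62 (SE 0.18, adjusted p = 2.01e-05). Cybb is also made by macrophages and B cells. Mmp9, a gelatinase, had 283 and 262 against 533 and 531, a difference of 0.89 that did not pass the test (adjusted p = 0.291). Lyz2, the lysozyme of all phagocytes, rose from 12554 and 9811 to 17260 and 17365, a call lost under quantile normalisation.

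The calgranulins S100a8 and S100a9, cytosolic proteins of mature neutrophils, were bright at both ages and rose. S100a9 went from 7529 and 6138 to 25999 and 23571, a difference of 1.86, and S100a8 from 16054 and 10636 to 28890 and 28012, a difference of 1.12. Of the surface receptors, Ly6g, the neutrophil antigen, rose from 280 and 231 to 1022 and 809 (difference 1.72, adjusted p = 9.39e-05) and Il1r2, a decoy receptor for interleukin-1, from 437 and 733 to 2245 and 2417. The other 4 did not pass the test by their brightest probe sets. Among them was Csf3r, the receptor for the granulocyte growth factor, with 814 and 1107 against 727 and 661 (difference -0.44, adjusted p = 0.0921). Both of its dimmer probe sets were called lower, from 190 and 318 to 87.9 and 24.9 (difference -1.75) and from 191 and 320 to 148 and 42.0 (difference -1.28). Among transcription factors Cebpa, which sets up the granulocyte programme, fell from 856 and 889 to 570 and 631, and this call was lost under quantile normalisation, median centring and without array a of the older males and the other 2 did not pass.

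Saa3, which encodes an acute-phase serum amyloid protein made by macrophages and other cells in inflammation, rose from a dim signal. It read 31.8 and 84.3 at 6-9 weeks and 5363 and 5211 at 24-28 weeks, a difference of 5.95 (SE 0.32, adjusted p = 9.84e-08). Both younger arrays lay below 100, and against 100 Saa3 was at least 52.9-fold higher. Wfdc21, a small secreted protein gene, rose from 516 and 608 to 10744 and 10318, a difference of 4.16. Mcpt8, a protease of basophils, rose from 31.5 and 52.0 to 424 and 460, a difference of 2.70, while a second, dimmer Mcpt8 probe set read 84.8 and 126 against 80.2 and 94.4 and did not pass. Of 8 tested mast cell and basophil genes 2 rose, the other being Tpsb2 (0.55), whose call was lost without array a of either age. Another Tpsb2 probe set ran the other way, 246 and 309 against 49.1 and 326, a difference of -0.85 that did not pass.

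**Figure D2:**
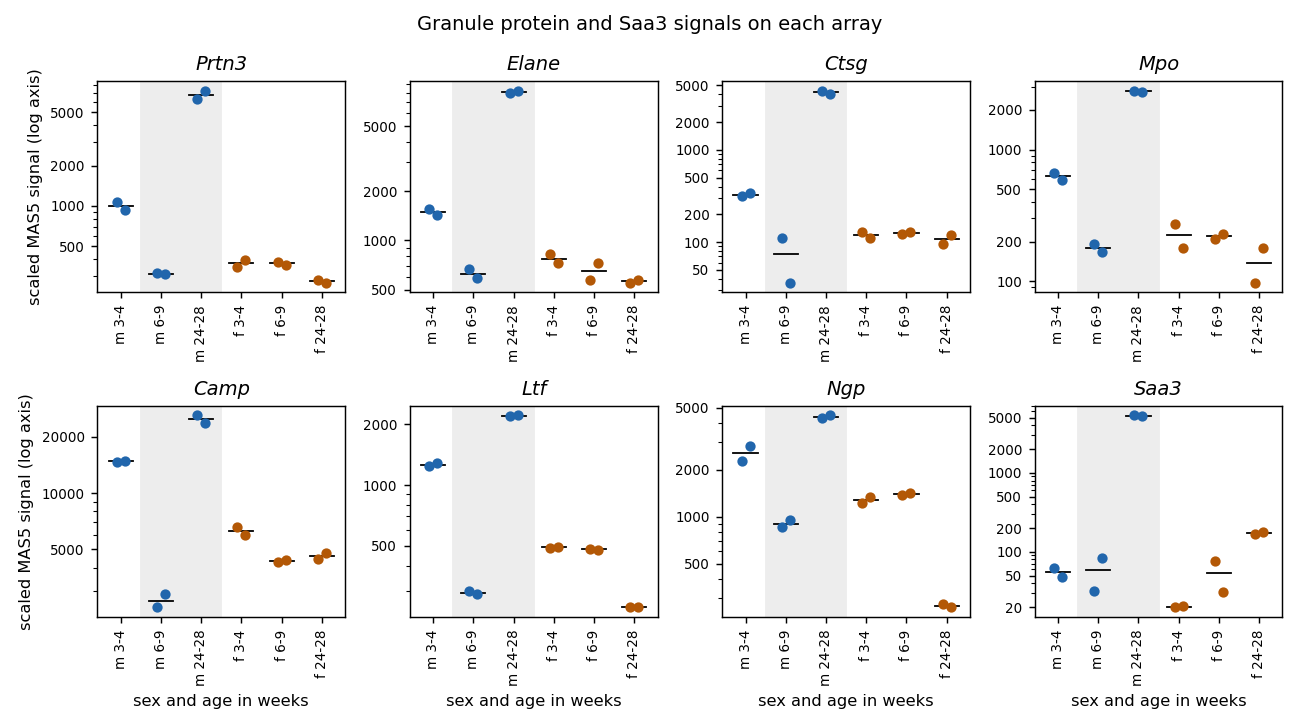
Scaled MAS5 signal (log axis) of 8 genes on each of the 12 arrays, by sex and age in weeks, with blue for males, orange for females, a line at each group mean and the compared male groups shaded. In all 8 panels both male arrays at 24-28 weeks stand above every other array, from 2183 and 2210 for Ltf to 25999 and 23753 for Camp.

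Erythroid genes rose in every class but that of globins and their chaperone. In that class only 2 of 7 listed genes were tested and neither passed, so it is hardly measured here. Of 30 tested, 26 were higher at 24-28 weeks and 0 were lower in limma's test (2 lower at an unadjusted p under 0.05), with a median difference of 1.84. The 26 comprised 7 of 7 haem synthesis enzymes, 6 of 6 membrane and skeleton proteins, 6 of 7 transcription factors and 7 of 8 receptors and other genes. The promoters of a haem enzyme and a membrane protein from this group are shown as the 250 bases before the start, 5′ to 3′, from RefSeq's GRCm38.p6 (Alas2 at chrX:150547167-150547416, plus strand, and Rhag at chr17:40810899-40811148, plus strand). Capitals mark a GATA core, AGATAA or TGATAA or its reverse complement, which lies 86 bases before the start of Alas2 and 31 bases before that of Rhag.
Alas2: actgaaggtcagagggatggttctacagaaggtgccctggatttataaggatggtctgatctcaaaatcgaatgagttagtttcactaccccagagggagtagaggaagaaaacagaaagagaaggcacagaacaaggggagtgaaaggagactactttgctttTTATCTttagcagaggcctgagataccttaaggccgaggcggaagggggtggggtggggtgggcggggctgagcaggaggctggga
Rhag: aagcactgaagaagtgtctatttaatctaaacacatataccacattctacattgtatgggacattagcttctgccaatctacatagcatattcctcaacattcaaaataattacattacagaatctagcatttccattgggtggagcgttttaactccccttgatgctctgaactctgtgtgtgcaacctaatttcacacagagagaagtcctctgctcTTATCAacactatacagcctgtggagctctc
AGATAA or TGATAA stood on either strand in 12 of the 20 erythroid genes with a promoter in the table (60%), against 21.0% of all genes, in the windows of 300 bases.

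Haem is built by a chain of enzymes. Alas2, the erythroid form of the first, had 4302 and 4504 at 6-9 weeks and 11801 and 11757 at 24-28 weeks, a difference of 1.41 (SE 0.09, adjusted p = 4.08e-07). Urod, the uroporphyrinogen decarboxylase, went from 1023 and 879 to 6937 and 7237, a difference of 2.86, the largest in the chain, while a dim second probe set of Urod differed by -0.79 and did not pass. Uros went from 820 and 701 to 5027 and 4856 (difference 2.65). Alad rose from 689 and 916 to 4068 and 4204, and Ppox from 403 and 474 to 1753 and 1809. Cpox (1.06) and Fech, the enzyme that inserts the iron (0.64), rose least, and the call for Fech was lost without any 1 of the 4 arrays. No array of the 6-9 week group reached the lowest 24-28 week array in any of the 7.

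Erythroid transcription factors rose with the enzymes. Tal1, a factor needed for blood formation, went from 136 and 90.3 to 1877 and 1815, a difference of 3.71 (SE 0.16, adjusted p = 2.15e-08). Gata1, which binds the GATA core, went from 143 and 233 to 1190 and 1250, a difference of 2.54 (SE 0.18). Nfe2 rose from 685 and 653 to 3783 and 3959 and Klf1 from 746 and 418 to 2025 and 2255. Lmo2 (1.16) and Gfi1b (1.02) also rose. In each of these 6 genes both older arrays exceeded both younger ones.

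Genes of the red cell membrane and of erythroid metabolism rose as well. Rhag, a glycoprotein of the Rh complex, went from 841 and 827 to 7896 and 8259, a difference of 3.23, measured by a probe set that does not meet all design rules. Rhd, its partner, went from 798 and 734 to 5724 and 6706 (difference 2.97). Epb42, a membrane skeleton protein, rose from 191 and 205 to 1354 and 1234, and the anion exchanger Slc4a1 from 865 and 811 to 2326 and 2688. Hemgn, a nuclear protein of erythroid precursors, rose from 828 and 779 to 8595 and 8814, a difference of 3.39 from a probe set that can match related transcripts. Aqp1, the water channel, rose by 2.54, the peroxidase Prdx2 by 1.91, the carbonic anhydrase Car2 by 1.86 and the erythropoietin receptor Epor by 1.23. Slc11a2, an iron transporter, had 484 and 435 against 346 and 328 and did not pass (adjusted p = 0.07). The 2 globin probe sets with 1 symbol did not pass either. That of Hba-a1 read 8466 and 2319 at 6-9 weeks against 5702 and 582 at 24-28 weeks, so that arrays of one group differed by more than the groups. Without array b of the older males the Hba-a1 difference was 0.36, and without array a it was -2.86. The other, Hbb-bh1, went from a mean of 265 to 82.9, a difference of -1.37 close to the threshold (adjusted p = 0.0566). Both older Hbb-bh1 arrays lay below 100 and below both younger ones, at least 2.64-fold lower against 100.

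Cell cycle genes rose together: 50 of 68 tested were higher at 24-28 weeks and 0 were lower in limma's test (0 also at an unadjusted p under 0.05), and the median difference was 0.97. The rise took in replication genes (17 of 21), nucleotide supply (3 of 4), cyclins, kinases and their regulators (15 of 21) and genes of the mitotic spindle and chromosomes (15 of 22). The promoter of Cdk1, the kinase that starts mitosis, is shown as the 250 bases before its start on the minus strand at chr10:69352913-69353162, from RefSeq's GRCm38.p6, read 5′ to 3′. Capitals mark TTTGAA, the core of the cell cycle homology region through which the MuvB complexes act, found 71 and 15 bases before the start.
Cdk1: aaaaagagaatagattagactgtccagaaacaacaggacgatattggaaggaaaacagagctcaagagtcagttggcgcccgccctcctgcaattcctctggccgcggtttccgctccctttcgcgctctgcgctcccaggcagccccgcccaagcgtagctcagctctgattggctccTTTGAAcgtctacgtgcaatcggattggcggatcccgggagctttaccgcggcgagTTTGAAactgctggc
TTTGAA stood on either strand in 23 of the 55 cell cycle genes with a promoter (41.8%), against 20.2% of all genes, and CCAAT, the NF-Y core, in 35 of 55 (63.6%) against 41.1%.

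Birc5, the survivin gene of the mitotic chromosomal passenger complex, changed most in this group, from 626 and 548 at 6-9 weeks to 4680 and 5031 at 24-28 weeks, a difference of 2.98 (SE 0.10, adjusted p = 3.19e-09). Cdk1 went from 1119 and 1323 to 6104 and 5663, a difference of 2.24. Cks2, which docks on Cdk1, went from 1711 and 1733 to 10581 and 9988 (difference 2.56). The spindle checkpoint gene Mad2l1 rose from 923 and 997 to 5645 and 5154 and the mitotic kinase gene Aurka from 378 and 427 to 1925 and 1871. Rrm2, the regulated subunit of ribonucleotide reductase, rose from 1159 and 1244 to 5177 and 4701. Of the replication genes, Prim1 (primase) went from 218 and 225 to 1117 and 1071 and the sliding clamp Pcna from 5281 and 4757 to 13462 and 16189. Mki67, the widely used proliferation marker, went from 202 and 189 to 694 and 649 (difference 1.63, SE 0.16). A second Mki67 probe set ran the other way, 231 and 247 against 130 and 154, a difference of -0.64 that did not pass (adjusted p = 0.119). By the brightest probe sets the 2 male ages did not overlap for any of these 9 genes. Mcm2, a subunit of the replicative helicase, read 511 and 570 against 504 and 545, a difference within the spread between arrays, while the subunits Mcm5 (1.03), Mcm7 (1.06) and Mcm3 (0.41) were called higher.

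**Figure D3:**
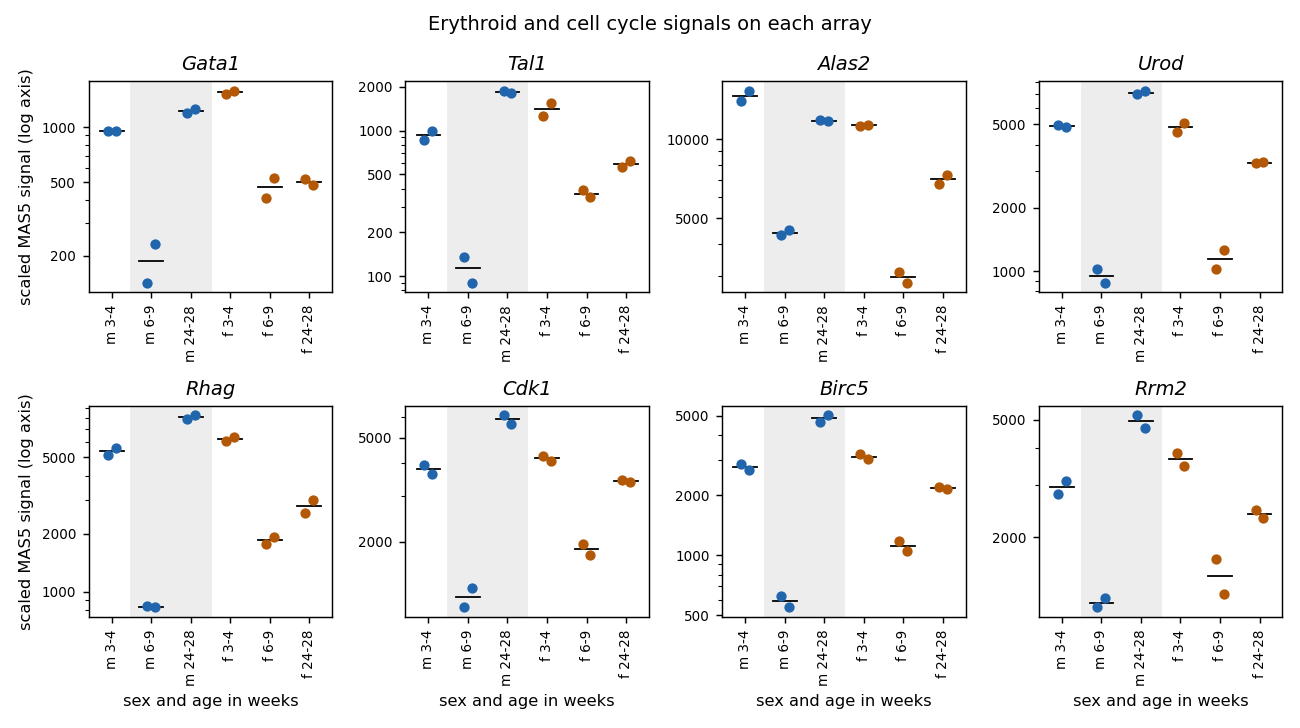
Scaled MAS5 signal (log axis) of 5 erythroid and 3 cell cycle genes on each of the 12 arrays, by sex and age in weeks, with blue for males, orange for females, a line at each group mean and the compared male groups shaded. The males at 6-9 weeks (Gata1 143 and 233, Birc5 626 and 548) lie below both their 3-4 week and 24-28 week counterparts in every panel.

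Genes of mitochondrial respiration rose by a smaller amount. Of 60 tested subunits of oxidative phosphorylation, 41 were higher and 2 were lower, with a median difference of 0.60. By complex the higher counts were 16 of 26 for complex I, 10 of 13 for complexes II and III with cytochrome c, 8 of 10 for complex IV and 7 of 11 for the ATP synthase. Ndufc1 of complex I went from 823 and 972 to 4873 and 5074, a difference of 2.43 (SE 0.12), and Ndufb9 from 1417 and 1641 to 6540 and 6492, a difference of 2.07. Uqcrq of complex III rose from 4500 and 4523 to 10080 and 10602, Cox7b of complex IV from 1633 and 1551 to 3594 and 4028, and Atp5l of the ATP synthase from 2620 and 2640 to 4366 and 4194. The core subunits Sdha (-0.69) and Uqcrc1 (-0.53) fell, and Cox6c of complex IV was called higher by its brightest probe set (0.60) and lower by another (-1.73). The fall of Uqcrc1 was lost under median centring, that of Sdha under both other scalings and without any 1 of the 4 arrays.

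Ribosomal protein genes gave an unstable count. Of 26 tested, 14 were higher and 2 lower with a median of 0.53, but quantile normalisation left 2 higher with a median of 0.11. Without array b of the males at 6-9 weeks 7 were higher with a median of 0.16, and without array a of the males at 24-28 weeks 4 were higher, and without its array b 9. The count was 8 without the intensity trend, 2 with the 4 male arrays alone in the fit and 7 with the 6 male arrays. Rpl13a rose from 2494 and 2550 to 8024 and 7700, a difference of 1.63, whereas Rpl22 fell from 547 and 780 to 218 and 298. A dimmer Rpl22 probe set read 214 and 167 against 216 and 193, a difference of 0.10 that did not pass. Rplp0, near the bright end of the scale, had 22454 and 14750 against 29617 and 27806, so its 2 younger arrays differed widely, and its call was lost under quantile normalisation and without array a of the older males.

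B cell genes fell almost without exception. Of 26 tested, 24 were lower at 24-28 weeks and 1 was higher, with a median difference of -1.27 against -0.25 for all probe sets and 28.3% of all called lower. The falls covered 11 of 12 receptor and co-receptor genes, 8 of 8 signalling genes and 5 of 6 transcription factors. The octamer ATGCAAAT, the site of POU factors in immunoglobulin promoters, stood on either strand in 4 of 21 B cell promoters (19.0%) against 1.97% of all genes.

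Fcer2a, the low-affinity IgE receptor CD23 of follicular B cells, fell most, from 829 and 616 to 45.8 and 113, a difference of -2.81 (SE 0.29, adjusted p = 1.23e-05). Cd79a, a signalling chain of the antigen receptor, went from 6207 and 7703 to 1592 and 1659, a difference of -2.07 (SE 0.13, adjusted p = 2.96e-07). Its partner Cd79b fell by less, from 11678 and 10156 to 5897 and 5976 (difference -0.87). Ms4a1, which encodes CD20, read 15045 and 11744 against 9420 and 9386 by its brightest probe set (difference -0.50), a call lost under median centring. A second bright Ms4a1 probe set read 9842 and 8504 against 8615 and 9437, a difference of -0.02 that did not pass (adjusted p = 0.898). Cxcr5, the receptor that guides B cells into follicles, fell from 631 and 462 to 60.2 and 233. Ebf1, a factor that sets B cell identity, fell from 176 and 194 to 16.5 and 18.6, a difference of -2.13 (at least 1.84-fold lower against a signal of 100). Its partner Pax5 fell only from 508 and 518 to 384 and 336 (difference -0.48, adjusted p = 0.03), a call lost under both other scalings and without array b of the older males or either younger array. The kinase Blk fell from 2498 and 2577 to 951 and 1033 and the factor Spib from 2030 and 1972 to 573 and 512. By the brightest probe sets, no older array of these 9 genes reached the lower of its younger arrays. The gene that rose was Cd24a, which is also made by erythroid precursors and neutrophils, from 8965 and 7173 to 20709 and 19894 (difference 1.34).

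Of 15 genes of antibody production 3 were called higher and 4 lower, shares near the 15.7% and 28.3% of all probe sets. The 3 are Dnajb9, Ighm and Ighg3, and the last 2 rest on probe sets that disagree with others of the same gene. Irf4, needed for plasma cell formation, fell from 600 and 534 to 59.5 and 64.1, a difference of -2.67 (SE 0.18) and at least 5.66-fold against 100, and Xbp1 from 1644 and 1606 to 667 and 675. The IgA constant gene Igha fell from 13261 and 12184 to 6728 and 6717. The probe sets of a constant gene disagreed. For Ighm the brightest read 0.73 higher, a call lost under quantile normalisation, while 8 of the 10 others were called lower, among them one that went from 12132 and 10525 to 2741 and 2611. For Ighg3 the brightest went from 1090 and 1152 to 4302 and 4197, and of the other 5, 1 was called higher and 4 lower. Many of these probe sets can match several immunoglobulin transcripts, so no direction is given for Ighm or Ighg3. Among variable segments Ighv14-2 fell from 2100 and 2476 to 213 and 216, a difference of -3.23, and Igkv4-68 from 3780 and 3986 to 1751 and 1822.

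T cell genes fell in parallel. Of 31 tested, 24 were lower and 0 were higher in limma's test (0 higher also at an unadjusted p under 0.05), with a median of -1.33. The invariant receptor chain Cd3e went from 594 and 962 to 54.6 and 84.3, a difference of -2.97 (SE 0.23, adjusted p = 1.17e-06) and at least 7.56-fold lower against 100, and Cd3g from 330 and 284 to 96.6 and 89.0. Cd3d, another chain of the same complex, read 641 and 670 against 571 and 591, a difference of -0.16 that did not pass (adjusted p = 0.251) and turned to 0.16 under median centring. The chains of one complex thus gave unequal differences.

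Both co-receptors fell. Cd8a of cytotoxic T cells went from 1514 and 1673 to 220 and 215, a difference of -2.70 (SE 0.11, adjusted p = 1.29e-08), and Cd4 of helper T cells from 880 and 835 to 356 and 310, a difference of -1.29 (SE 0.18). Thy1, a surface protein of T cells and some stromal cells, fell from 937 and 914 to 282 and 195. Icos, a costimulatory receptor, fell from 234 and 143 to 12.7 and 24.5. Fyn, a kinase of the receptor pathway, fell from 690 and 668 to 115 and 130 and the factors Ets1 from 701 and 802 to 179 and 130 and Satb1 from 816 and 753 to 162 and 187. The 2 ages did not overlap for any of these 7.

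Of 15 NK and cytotoxic genes, 9 were lower and 0 higher (0 also at an unadjusted p under 0.05), with 5 lower when array b of the younger males was left out and 5 under median centring. Ccl5, a chemokine of memory T and NK cells, went from 2247 and 1967 to 336 and 504, a difference of -2.27. Gzma, a granule protease of killer cells, fell from 2389 and 1720 to 762 and 663, and Prf1, the pore-former perforin, from 221 and 275 to 18.3 and 66.8. The NK receptor Klrd1 fell from 1141 and 1122 to 567 and 453. The ages were apart for these 4 genes.

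**Figure D4:**
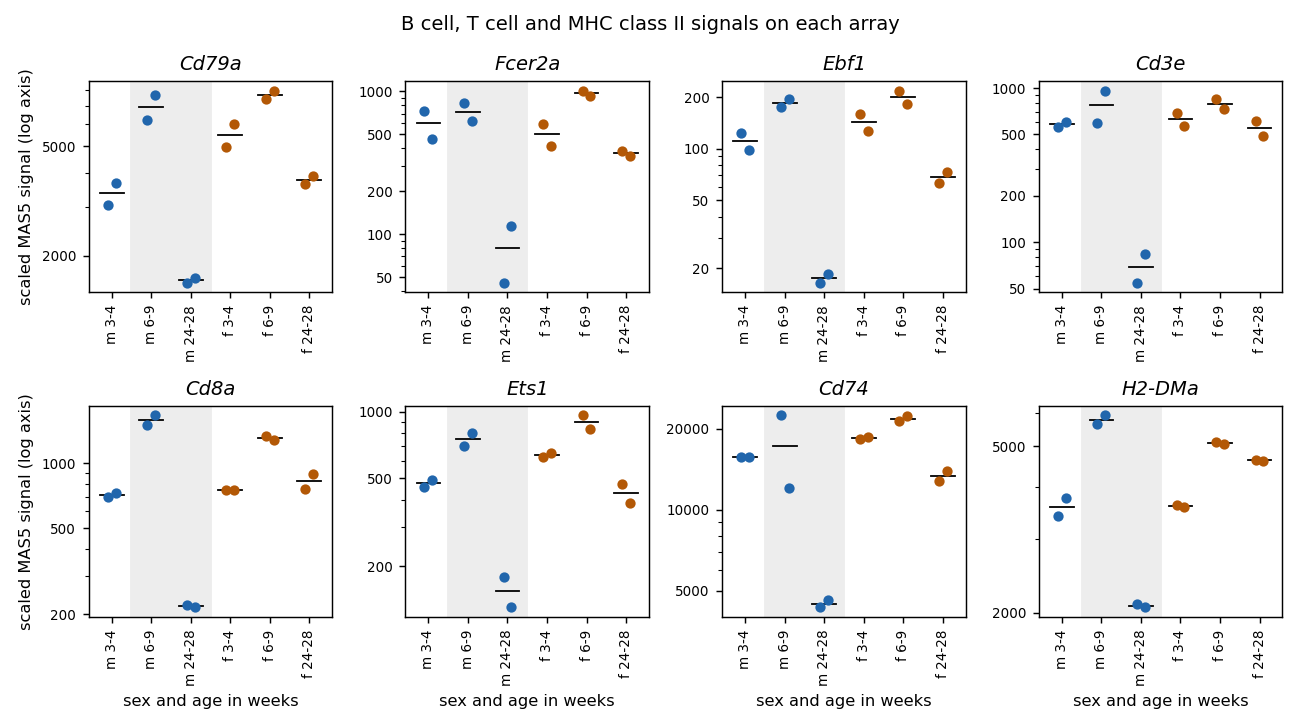
Scaled MAS5 signal (log axis) of 3 B cell, 3 T cell and 2 MHC class II genes on each of the 12 arrays, by sex and age in weeks, with blue for males, orange for females, a line at each group mean and the compared male groups shaded. The males at 24-28 weeks are below all other arrays in every panel, for example at 220 and 215 for Cd8a and 1592 and 1659 for Cd79a.

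All 11 tested genes of MHC class II presentation were lower at 24-28 weeks, with a median of -1.46. Cd74, the invariant chain, went from 22449 and 12106 to 4345 and 4613, a difference of -1.87 (SE 0.21, adjusted p = 2.16e-05). The peptide-loading chains followed, with H2-DMa from 5638 and 5931 to 2099 and 2057 (difference -1.46) and H2-DMb1 from 6052 and 6408 to 2309 and 2257 (difference -1.43). H2-Ob, of the H2-O loading inhibitor, fell from 1114 and 1961 to 447 and 315. The antigen-presenting chains fell by less, H2-Eb1 from 16049 and 10948 to 5648 and 5987, H2-Ab1 from 10072 and 5540 to 4362 and 4063 and H2-Aa from 19623 and 11450 to 9464 and 9447. The calls of H2-Ab1 and H2-Aa were lost under median centring, and that of H2-Aa also without either older array or without array a of the younger males. Ciita, the master regulator of this set, fell from 388 and 397 to 115 and 130. For the brightest genes the 2 younger arrays themselves differed widely, but neither was as low as an older one. CCAAT, bound by NF-Y in the class II promoters, stood on either strand in 7 of the 8 members with a promoter in the table (87.5%), against 41.1% of all genes.

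Of 15 dendritic cell genes 9 were lower and 1 higher, and of 29 macrophage and monocyte genes 15 were lower and 1 higher, with 13 not passing. Of the latter 10 of 17 genes of red pulp and other resident macrophages and 5 of 12 monocyte genes were lower. Median centring gave 5 higher and 13 lower macrophage and monocyte genes, and leaving out array a of the younger males 2 higher. Itgax, the integrin CD11c, fell from 936 and 842 to 264 and 240, and Xcr1, a receptor of cross-presenting dendritic cells, by 1.87 on the log2 scale. The dendritic gene called higher, Itgae, was dim (23.1 and 21.0 against 67.4 and 86.1), and its call was lost without any 1 of the 4 arrays. Csf1r, the receptor for macrophage growth factor, fell from 2085 and 1615 to 581 and 358, a difference of -1.93, while a dimmer second probe set of it read 167 and 190 against 139 and 233 and did not pass. Marco, a scavenger receptor of the marginal zone, fell from 472 and 442 to 43.6 and 127, and C1qa, a complement subunit of resident macrophages, from 6300 and 7213 to 3131 and 3481. Hmox1, which breaks down haem in red pulp macrophages, fell from 11230 and 12220 to 6382 and 6527. The monocyte gene called higher in the full fit was the chemokine Ccl9, from 675 and 596 to 3010 and 2989, a difference of 2.19 (SE 0.14).

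Genes of the supporting tissue also fell. Of 32 stroma and matrix genes 19 were lower and 1 higher, and of 15 endothelial genes 8 were lower and 0 higher, 5 of them under quantile normalisation. Cxcl13, the chemokine of the follicular stroma that attracts B cells, went from 1257 and 1266 to 412 and 375, a difference of -1.60 (SE 0.13, adjusted p = 1.91e-06). Madcam1, an adhesion molecule of the marginal sinus, fell from 698 and 1002 to 267 and 355, and its second probe set, at 410 and 408 against 366 and 348, did not pass. Bgn, a matrix proteoglycan, fell from 2236 and 2556 to 896 and 854, and Tcf21, a factor of splenic mesenchyme, from 1523 and 1541 to 728 and 696. Tie1, an endothelial receptor, fell from 182 and 308 to 27.4 and 18.9. Separation of the ages was complete for the brightest probe sets of these 5 genes.

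Of 28 cytokine and chemokine genes 16 were lower and 0 higher (0 also at an unadjusted p under 0.05), with a median of -0.89. Cxcl9, induced by interferon gamma, fell most, from 707 and 676 to 119 and 75.5 (difference -2.51). Tgfb1 went from 637 and 766 to 89.3 and 125, a difference of -2.40 (SE 0.19). The neutrophil attractant Cxcl1 fell from 241 and 292 to 24.9 and 35.1 (at least 2.66-fold lower against 100), while a second Cxcl1 probe set read 63.8 and 156 against 81.2 and 95.6, a difference of -0.16 that did not pass. Ltb, needed to form follicles, fell from 7070 and 6577 to 2827 and 3034. Il1b fell from 1374 and 1577 to 725 and 807.

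Interferon-stimulated genes differed in both directions. Of 31 tested, 6 were higher, a share near the 15.7% of all probe sets, and 15 were lower, beside 28.3%. Isg15, a ubiquitin-like modifier, rose from 6764 and 5919 to 22224 and 21036, a difference of 1.77 (SE 0.11, adjusted p = 1.78e-07), and Isg20 from 2337 and 1857 to 5067 and 5331. Rsad2 rose from 2765 and 2315 to 4703 and 5100. In contrast Ifit2, induced by the same interferons, fell from 675 and 679 to 168 and 164, a difference of -1.84, and Ifit3 from 2095 and 1906 to 959 and 761. Irf7, a factor of the pathway, fell from 2489 and 2971 to 1160 and 1195 and Gbp2 from 2103 and 2394 to 808 and 807. The count of 6 higher includes Slfn2, whose difference of 0.29 turned to -0.18 under quantile normalisation.

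Immediate early and heat shock genes, which respond fast to signals and stress, were 4 higher and 14 lower of 31. The immediate early genes were 0 higher and 11 lower of 20 in limma's test, with a median of -0.58. The heat shock genes were 4 higher and 3 lower of 11, with a median of -0.14. Of all probe sets 15.7% were higher and 28.3% lower. Under median centring only 4 genes of the list were lower. Jund fell from 7764 and 6247 to 1534 and 1761, a difference of -2.06 (SE 0.15), and Zfp36 from 901 and 861 to 365 and 415. Hspe1, a mitochondrial chaperonin, rose from 4062 and 3705 to 12959 and 13364, a difference of 1.75, whereas its partner Hspd1 fell from 2811 and 2462 to 1417 and 1303. A dimmer Hspd1 probe set read 201 and 193 against 135 and 178, a difference of -0.29 that did not pass. Without array a or b of the older males or array a of the younger ones, 8 or 9 genes were lower.

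Of the markers of other tissues, 5 of 24 tested pancreas genes were higher and 8 lower, shares near the 15.7% and 28.3% of all probe sets, with a median of 0.02, and their summed signal was 109319 to 150559 at 6-9 weeks and 137821 to 142003 at 24-28 weeks, so the ranges overlapped. No tested pancreas gene was at 0 on any of these arrays. The pooled count hides classes that differed. Of 12 digestive enzymes and zymogens 0 were higher and 7 lower in limma's test, with a median of -0.52. Of 10 other acinar genes 4 were higher and 1 lower, with a median of 0.28, and of 2 islet hormone genes 1 was higher and 0 lower. Reg3b, an acinar stress protein, rose from 9456 and 8091 to 18980 and 16644, while the lipase Cel fell from 12956 and 9529 to 4087 and 4547 and Prss2, a trypsinogen, had 19543 and 11926 against 15764 and 15784 and did not pass, though quantile normalisation called it lower (difference -0.54, adjusted p = 0.00115). The pancreas counts were 9 higher and 4 lower under median centring, 10 higher without array a of the younger males, 4 higher and 9 lower with a median of -0.30 without their array b, and 3 higher of 16 when probe sets that can match other transcripts were left out. Of 9 adipose genes 4 were lower, beside 28.3% of all probe sets, and 2 were lower under quantile normalisation, median centring, a filter at a signal of 200 or without either array of the younger males. They had a summed signal of 4990 to 5477 at 6-9 weeks and 1804 to 2318 at 24-28 weeks. The adipokine gene Adipoq fell from 380 and 500 to 108 and 123 and Scd1, a fatty acid desaturase, from 2942 and 2703 to 794 and 831. Of 12 muscle genes 3 and of 4 liver genes 1 were lower, shares below that of all probe sets. Without array a of either male age 1 muscle gene and 0 liver genes were lower, and under quantile normalisation and median centring 2 muscle genes and 0 liver genes, with 1 muscle gene higher. The summed muscle signals were 3742 to 4306 at 6-9 weeks and 3132 to 3488 at 24-28 weeks. The part of these tissues in the other results was not tested.

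The remaining lists were small. Of 7 platelet and megakaryocyte genes 2 were higher, Gp9 (330 and 105 against 620 and 485) and Gp1bb (138 and 127 against 226 and 267), and both calls were lost without array a or b of the older males or array b of the younger ones. Fli1, a factor of megakaryocytes and also of lymphocytes and endothelium, fell from 1595 and 998 to 332 and 396. Of 13 sex steroid and glucocorticoid genes 3 were higher and 4 lower, beside 15.7% and 28.3% of all probe sets. The glucocorticoid-induced kinase Sgk1 fell from 572 and 659 to 223 and 219, and Hsd11b1, which regenerates active glucocorticoid, rose from 1135 and 1071 to 1934 and 1753.

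Several of the 15 largest increases and decreases stood in none of these lists. Mgst3, a glutathione transferase of membranes, rose from 1101 and 1055 to 15460 and 15718, a difference of 3.82 (SE 0.11, adjusted p = 1.89e-09). Aldh1a1, a retinaldehyde dehydrogenase, rose from 1462 and 1530 to 12974 and 12905, while a dim second probe set of it did not pass. Rgcc, a regulator of the cell cycle, rose from 256 and 258 to 2459 and 2367, and 1810009J06Rik, a trypsinogen-like gene, from 270 and 207 to 2139 and 2357. Mef2c, a factor of B cells among others, fell from 780 and 420 to 20.7 and 34.8, a difference of -3.35 (SE 0.38, adjusted p = 2.58e-05) that was -2.18 with the larger offset tried. Against a signal of 100 it was at least 5.72-fold lower, and its younger arrays differed widely. Traf1, a signalling adaptor of activated lymphocytes, fell from 503 and 543 to 32.4 and 26.3 (at least 5.22-fold), and Nfatc1, a factor of lymphocyte activation, from 343 and 326 to 47.0 and 20.6 (at least 3.34-fold). Rac2, a GTPase of blood cells, fell from 6946 and 6817 to 1329 and 1195, a difference of -2.42 (SE 0.09). Rab11b, a GTPase of vesicle recycling, fell by 2.84 on the log2 scale, the serine protease gene Prss30 by 2.64, Rras by 2.55, D13Ertd608e by 2.45 and Lrp10 by 2.44.

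The same 2 ages were measured in females on 4 other arrays, where the beta-actin ratio was 0.656 ± 0.116 at 6-9 weeks and 1.30 ± 0.0926 at 24-28 weeks (SD, n = 2). In females 1981 probe sets differed (22.2%), 746 of them higher (8.36%) and 1235 lower (13.8%), with a median of -0.07. Both sexes shared 1535 calls, of which 1385 had the same direction, 35.3% of the male calls and 69.9% of the female ones. The test of the difference between the sexes called 1513 probe sets (17%), with the male change higher for 723 (8.1%) and lower for 790 (8.85%).

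Neutrophil granule genes differed between the sexes. In females 1 of 26 was higher and 9 were lower, with a median of -0.34, and the male change exceeded the female one in 16 of 26 and lay below it in 1. Ngp fell in females from 1376 and 1426 to 275 and 261, against its rise in males, a difference between the sexes of 4.50 (SE 0.16, adjusted p = 5.13e-08). Prtn3 had 383 and 362 in females at 6-9 weeks and 280 and 267 at 24-28 weeks, a difference between the sexes of 4.70 (SE 0.18). Ctsg stayed dim in females, at 123 and 127 against 96.3 and 120, with a difference between the sexes of 5.58 (SE 0.40). For Lyz2 the changes were 0.64 in males and 0.62 in females, with a difference of 0.02 (SE 0.18) that did not pass.

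Erythroid genes were higher at 24-28 weeks in both sexes. In females 17 of 30 were higher and 0 lower (0 also at an unadjusted p under 0.05), with a median of 0.42, and the male change was larger in 21 and smaller in 0 (1 at an unadjusted p under 0.05). Tal1 differed by 0.63 in females (adjusted p = 0.0171), so that the sexes differed by 3.08 (SE 0.23). Alas2 rose by 1.23 in females and 1.41 in males, and this difference of 0.18 (SE 0.13, adjusted p = 0.404) did not pass. Epb42 rose by 2.12 in females, and its difference of 0.40 did not pass either. Cell cycle genes had 19 of 68 higher and 3 lower in females, with the male change larger in 41. For Cdk1 the female change was 0.86 and the sexes differed by 1.38 (SE 0.14), and Rrm1, the large reductase subunit, fell in females (-0.89) and rose in males (1.10). The respiratory genes had 16 of 60 higher and 4 lower in females, with the male change larger in 25 and smaller in 1.

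Lymphocyte genes fell in both sexes, by more in males for part of them. Of the B cell genes 16 of 26 fell in females, and the male change lay below the female one in 12 and above it in 1. Of the T cell genes 10 of 31 fell and 1 rose in females, and the male change lay below the female one in 12. Cd8a fell by 0.65 in females on the log2 scale, from 1334 and 1289 to 759 and 895, and the sexes differed by -2.05 (SE 0.16, adjusted p = 5.35e-06). The MHC class II genes fell in 4 of 11 in females, with a median of -0.09, and the male change lay below the female one in 8. H2-DMa had 5114 and 5053 against 4646 and 4599 in females, and the sexes differed by -1.33 (SE 0.12). Some large falls were present in both sexes: Mef2c fell by 3.05 in females on the log2 scale (a difference between the sexes of -0.31, SE 0.54), Rab11b fell by 2.28 (difference -0.56, SE 0.33) and Jund fell by 1.96 (difference -0.11, SE 0.21). These did not pass the test of the sexes, which does not show that they changed alike.

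Pancreas genes ran the other way. In females 21 of 24 were higher at 24-28 weeks and 1 was lower, with a median of 2.0, and their summed signal was 63353 to 67185 at 6-9 weeks and 201237 to 203755 at 24-28 weeks. The male change lay below the female one in 20 of 24. Pnliprp1, a lipase-related acinar gene, went from 1472 and 1225 to 8496 and 8951 in females and from 3641 and 3718 to 2201 and 2562 in males, and the sexes differed by -3.30 (SE 0.15, adjusted p = 1.11e-07). The single pancreas gene that fell in females was Cela2a, whose male arrays disagreed within each age (3443 and 1450 against 1996 and 4147). Some immunoglobulin kappa segments, named for their small p between the sexes, also diverged. Igkv8-30 rose in females from 930 and 932 to 9160 and 9030 and fell in males from 2223 and 2779 to 1270 and 1236, a difference of -4.22 (SE 0.17). A dimmer Igkv8-30 probe set read 98.7 and 162 against 189 and 78.9 in males, a difference of -0.02 that did not pass. Igkv8-19 differed between the sexes by -3.19, Igkv14-111 by -3.35 and Igkv4-68 by -2.74, and the first 2 of these 3 and Igkv8-30 are read by probe sets that can match related transcripts. In males a further Igkv14-111 probe set was called lower (-0.79) and another did not pass (0.43).

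**Figure D5:**
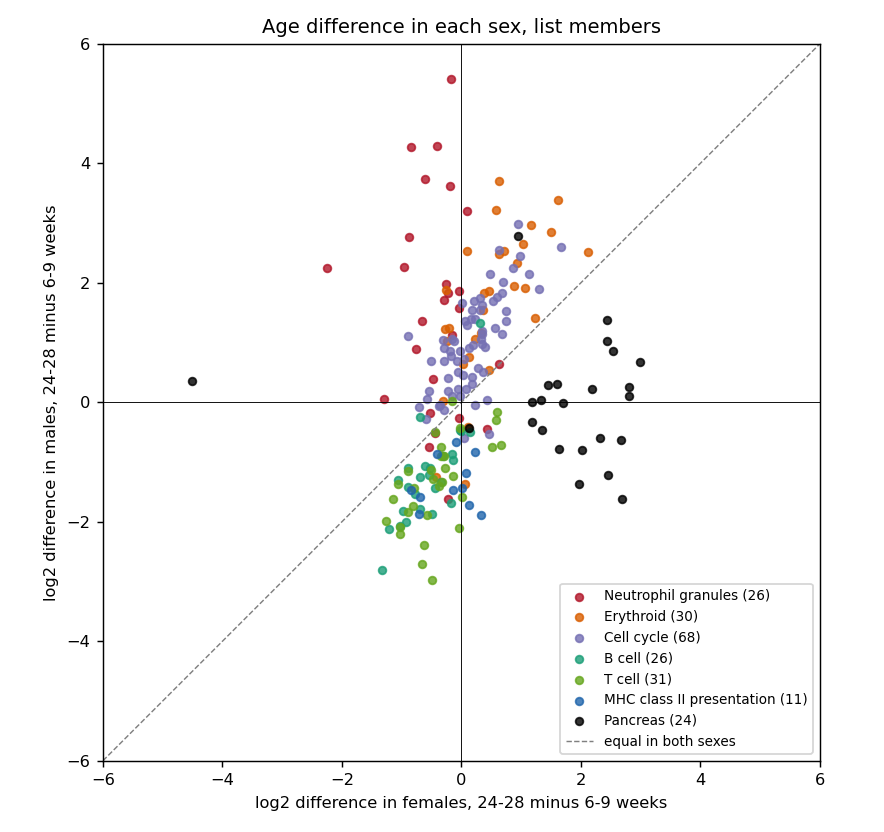
Each point is one tested gene of 7 lists, with its log2 difference between 24-28 and 6-9 weeks in females on the horizontal axis and in males on the vertical axis, 2 arrays per group. Points on the dashed line would have changed equally. Of 26 granule genes 16 were called above it, such as Ctsg (5.41 in males, -0.17 in females), 1 below it and 9 neither. Erythroid and cell cycle genes lie mostly above it and most pancreas genes to the right of it. Cela2a stands alone at -4.51 in females (its male difference of 0.36 turned to -0.16 or -0.26 without 1 of 2 arrays).

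The males at 3-4 weeks give a further reference, with a beta-actin ratio of 1.11 ± 0.119 (SD, n = 2). The 2 comparisons with them share arrays with the comparison above and with each other, so their values are given side by side only. From 3-4 to 6-9 weeks 0 of 30 erythroid genes were higher (1 at an unadjusted p under 0.05) and 25 lower (9.94% and 9.29% of all probe sets), with a median of -1.75, and between 3-4 and 24-28 weeks 9 were higher and 4 lower (9.8% and 15.7% of all probe sets), with a median of 0.13. Gata1 read 946 and 952 at 3-4 weeks, between 143 and 233 at 6-9 weeks and 1190 and 1250 at 24-28 weeks. Alas2 was highest at 3-4 weeks, with 13962 and 15328. Among the males the 6-9 week group was thus the low one for these genes.

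Cell cycle genes had 0 of 68 higher and 46 lower from 3-4 to 6-9 weeks, with 26 higher and 2 lower between 3-4 and 24-28 weeks. Cdk1 read 3933 and 3635 at 3-4 weeks. Of the respiratory genes 0 of 60 were higher and 23 lower at 6-9 weeks, and 33 were higher and 1 lower at 24-28 weeks, both against 3-4 weeks.

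Granule genes stood apart from 3-4 weeks too. Of 26, 5 were higher and 9 lower at 6-9 weeks, and 17 higher and 1 lower at 24-28 weeks, with medians of -0.16 and 1.12. Prtn3 read 1074 and 929, Elane 1553 and 1429 and Ctsg 312 and 339 at 3-4 weeks, in each case between the 2 later ages. Saa3 was as dim at 3-4 weeks, at 61.6 and 48.6, as at 6-9 weeks. Camp read 14669 and 14885 and Ltf 1240 and 1284, also between the later ages.

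For lymphocytes the low group was that of 24-28 weeks. Of the B cell genes 8 of 26 were higher and 1 lower at 6-9 weeks, and 0 higher and 20 lower at 24-28 weeks. The T cell genes gave 7 higher and 1 lower of 31, then 0 higher and 20 lower, and the MHC class II genes 5 higher and 0 lower of 11, then 0 higher and 11 lower. Cd79a read 3059 and 3672 at 3-4 weeks, Cd8a 700 and 732, and H2-DMa 3409 and 3758, all between the 2 later ages. Cd3e, at 558 and 603, was near the lower of its 6-9 week arrays.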

How the data were processed

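Total RNA of mouse spleen was measured on 12 single-channel Affymetrix arrays, 2 per group. The deposited values are linear intensities, MAS5 signals per the submitters' processing notes, with trimmed means of 800.47 to 800.67 per array, so the authors had scaled the arrays globally. No depth or read count exists for arrays, and the 2 arrays per group limit the precision.

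Control probe sets (66 of 12488) were left out, signals were multiplied per array so that the mean after trimming 2% off each end was 500, and the 8926 of 12422 remaining probe sets with a signal of at least 100 on at least 2 arrays were tested. limma 3.58.1 (R 4.3.3; lmFit, eBayes with an intensity trend) was fitted to log2(signal + 32) on all 12 arrays with a mean per group (6 residual and 5.43 prior degrees of freedom), with Benjamini-Hochberg adjustment over all tested probe sets at 0.05. The same fit gave the female difference and the difference between the sexes. Of the probe sets 10833 had 1 gene symbol in the platform annotation, 396 several and 1193 none. Genes are shown by their brightest probe set with 1 symbol.

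Named genes were the 15 largest increases and 15 largest decreases among called genes whose ages did not overlap, the 10 with the smallest p between the sexes, and up to 6 called members per list and direction by smallest p. Further list members were named for their role with their values known. The gene lists and the genes in them were chosen with earlier results of these data known. A list is described by counts and its median, with no test. Scaling, offset, filter, trend, the arrays in the fit, a replicate block and leaving out each array were tried as alternatives. The script was tested on simulated data.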

Additional observations from a re-analysis of the deposited data

Results flagged for a closer look

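The age change in males was higher than that in females for 723 probe sets and lower for 790, by the test of the difference between the sexes. All values here are the male age difference minus the female one, on the log2 scale, and each gene passed that test at an adjusted p under 0.05 in limma.

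The granule and other myeloid genes named here were higher in the male change: Ctsg by 5.58, Chil3 by 5.13, Prtn3 by 4.70, Saa3 by 4.63, Ngp by 4.50, Wfdc21 by 4.39, Mpo by 4.34, Elane by 3.81, Ltf by 3.64 and Camp by 3.12. Among erythroid genes the value was 3.08 for Tal1, 2.64 for Rhag and 1.76 for Hemgn. For genes outside the lists it was 2.60 for Mgst3, 2.41 for 1810009J06Rik, 2.03 for Rgcc and 1.88 for Aldh1a1.

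Immunoglobulin segments were not counted as a class. Those named here, for a small p between the sexes or a large male fall, were lower in the male change. The values were -4.22 for Igkv8-30, -3.35 for Igkv14-111, -3.19 for Igkv8-19, -2.74 for Igkv4-68 and -1.95 for Ighv14-2. The acinar gene Pnliprp1 was lower in the male change too, with -3.30. Among lymphocyte genes the value was -2.83 for Traf1, -2.48 for Cd3e, -2.05 for Cd8a, -1.94 for Irf4, -1.48 for Fcer2a and -1.44 for Nfatc1. It was -2.57 for Prss30, -2.06 for the chemokine gene Cxcl9, -1.94 for D13Ertd608e, -1.88 for Rras and -0.999 for Rac2. The beta-actin ratio differed between the ages by more in males than in females, as given above, and its part in these values was not tested.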

How the results depend on the processing

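The count of 3923 called probe sets ranged from 3393 to 3972 over the other scalings, offsets, filters, the trend and the arrays in the fit. Median centring gave 2120 higher and 1390 lower, the only alternative that moved a count by more than 1.5 times. With an array left out the count was 3155 to 3944, with 1126 to 1386 higher and 1949 to 2558 lower, and the count for the difference between the sexes, 1513 in the full fit, was 1068 to 1360. The letters a and b did not pair the samples: deviations of arrays with the same letter correlated at -0.0657 to 0.059, and with the letter as a replicate block 3918 probe sets were called, 1395 higher and 2523 lower, and 1464 between the sexes.

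Of 232 named genes under 19 alternatives, 187 kept their direction and call under all of them and 45 did not: 149 of the values lost the call, 3 gained it and 12 changed sign. Of the genes that changed sign, Slfn2 was called in the full fit, and the others were not. Under quantile normalisation Slfn2 was -0.18, Cd3d 0.050, Mcm2 0.21 and Prss2 -0.54 (then called lower), and under median centring Cd3d was 0.16 and Mcm2 0.28. With an array left out Mcm2 ranged from -0.12 to 0.034, Cela2a from -0.26 to 0.97, Hba-a1 from -2.86 to 0.36 and Prss2 from -0.31 to 0.40. The cause was not tested. Gene list counts above 3 that moved by more than 1.5 times are given beside their lists, and several counts of 0 to 3 genes moved as well. With 2 arrays per group, small differences of dim genes could not be resolved.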
